A study of Mus musculus with 6 samples.

Results

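The genes described here are 59 enzymes, partner proteins and binding proteins that write, remove or read DNA methylation and histone marks. They were chosen by a list of gene symbols, drawn up with earlier results of these data known, and the rule uses no measured value. All 59 symbols were among the 55809 in the count files, and all 59 passed the filter on low counts that left 20146 genes to test. RNA came from dorsal root ganglia, the clusters of sensory neuron cell bodies beside the spinal cord, of 8-week-old C57BL6J mice. Dams of the prenatal stress group were confined in tubes under a bright lamp 3 times a day for 30 min at a time in late gestation, from E13 to E18 by the protocol label and from E13.5 to E18.5 by the series design, while control dams were not handled. Each group had 3 pools by the sample titles, with tissue of 3 mice in a pool, so differences between single mice are not visible (the protocol label gives 3 mice for a group). The labels say that males and females were used but give no sex, litter or batch for a pool, and a p-value here measures the spread between pools only.

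DNA methyltransferases place methyl groups on cytosine, mostly at CG dinucleotides, and TET enzymes oxidise them so that they can be removed. Histone methyltransferases, demethylases, acetyltransferases and deacetylases set the marks on histone tails that go with active or silent genes. In sensory neurons this machinery is best known for its part in neuronal identity and in the response to nerve injury, and in studies of early-life stress it is a common candidate for a lasting trace of the exposure. The mRNA levels below say nothing of enzyme activity or of the marks themselves, which were not measured.

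Many members have starts that are rich in CG dinucleotides, the letters on which DNA methylation acts. Of the 59, 47 matched a symbol in a RefSeq promoter table (GRCm38.p6) that holds 300 bases per start, from 250 before to 50 after it. CG, which reads the same on both strands, was counted at the start with the most CG of each gene. The count was 20 or more for 35 of the 47 members (74.5%), against 28.8% of the 27025 genes of the table and 51% of the 13578 tested genes it holds. The median was 29 for members, 20 for tested genes and 8 for all genes. The 250 bases before the start are shown for Kmt2c, the member with the smallest p below, for Setd2, and for Hdac8, one of the members with few CG. Capitals mark each CG. They lie at chr5:25498784-25499033 on the minus strand (Kmt2c), chr9:110532347-110532596 on the plus strand (Setd2) and chrX:102505159-102505408 on the minus strand (Hdac8).
Kmt2c: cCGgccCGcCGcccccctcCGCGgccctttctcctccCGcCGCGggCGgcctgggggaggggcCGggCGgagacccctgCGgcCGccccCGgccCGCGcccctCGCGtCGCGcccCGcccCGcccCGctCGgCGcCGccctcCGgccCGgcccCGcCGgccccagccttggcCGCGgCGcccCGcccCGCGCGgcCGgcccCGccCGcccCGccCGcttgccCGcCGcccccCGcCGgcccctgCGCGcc
Setd2: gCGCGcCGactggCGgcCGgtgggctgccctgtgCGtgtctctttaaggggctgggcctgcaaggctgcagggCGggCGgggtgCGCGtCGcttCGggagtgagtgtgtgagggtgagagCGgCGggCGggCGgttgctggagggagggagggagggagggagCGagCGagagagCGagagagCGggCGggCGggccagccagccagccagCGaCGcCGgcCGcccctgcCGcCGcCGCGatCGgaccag
Hdac8: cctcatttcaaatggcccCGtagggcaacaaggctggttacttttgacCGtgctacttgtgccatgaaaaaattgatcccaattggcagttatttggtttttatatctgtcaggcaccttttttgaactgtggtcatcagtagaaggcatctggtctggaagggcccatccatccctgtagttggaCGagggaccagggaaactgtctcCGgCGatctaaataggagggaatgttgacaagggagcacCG
These stretches hold 48, 31 and 6 CG. The count is a property of the reference sequence, and whether any of these cytosines was methylated was not measured.

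Total gene counts were 51.7 to 87.4 M per pool, so counting error is small at the level of most members and the number of pools limits precision. Markers of the labelled tissue were present: 12 of 12 sensory neuron genes were tested, at 8289 to 8877 CPM (counts per 1000000 gene counts, TMM-scaled) in sum. Markers of 4 other sources differed widely between pools of the same group. Skeletal muscle genes summed to 2262 CPM in control pool 3 and to 14.3 to 45.4 CPM elsewhere, neutrophil and marrow genes to 44.5 CPM in stress pool 1 and 410 CPM in stress pool 3, erythroid genes to 97.6 and 677 CPM in the same pools, and central nervous system genes ranged from 49.2 to 344 CPM. Without control pool 3, which held the muscle RNA, 4 of the 6 members described next kept an unadjusted p under 0.05 and none was called. Satellite glia markers had negative log2 fold changes in 8 of 8, 4 of them at an unadjusted p under 0.05 and 0 called (2784 to 3099 CPM in sum after stress and 3135 to 3488 CPM in controls); their part in the results below was not tested. In pooled tissue, fewer cells of a type and less RNA per cell cannot be told apart.

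None of the 59 genes passed the test between prenatal stress and control pools, and most log2 fold changes were close to 0. In edgeR's quasi-likelihood test, 0 had a Benjamini-Hochberg adjusted p under 0.05, against 26 of 20146 genes tested (0.129%), and the smallest adjusted p among members was 0.29. At an unadjusted p under 0.05 there were 6 members with higher levels after stress (10.2%; 6.01% of all tested genes) and 0 with lower levels (5.11%). All 3 stress pools lay above all 3 control pools for 7 members (11.9%; background 9.33%) and below them for 1 (1.69%; background 8.76%). The log2 fold changes ran from -0.13 to 0.21 with a median of 0.03, and the median of all tested genes was 0.01. Positive values were found for 44 of 59 members (74.6%), where 52.3% of all tested genes had one. The share was close to that of members, 70.9%, among the 117 other chromatin genes described last. Over 12 alternatives 33 members kept their sign throughout, 25 positive and 8 negative, and 26 changed sign in at least 1.
The data bound the size of a difference for most members. The 95% interval of the log2 fold change lay inside 0.32 in either direction for 51 of the 59 (86.4%), and for 52.4% of all tested genes. Among the 13403 tested genes between the lowest and highest member level in CPM, the share was 69.3%. Their median level was lower, 21.1 CPM against 41.2 CPM for members. For the 117 other chromatin genes, with a median of 43 CPM, the share was 91.5%. The 8 members with a wider reach were Dnmt3b, Uhrf1, Mbd4, Ezh2, Kmt2c, Setd1b, Ep300 and Kat6a, and the widest interval was that of Uhrf1 (-0.76 to 1.16). Of the 12 other ways of running the test, 1 called a member: the DESeq2 Wald test, in which 330 genes passed (1.64%), gave Kmt2c an adjusted p of 0.0493.

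**Figure D1:**
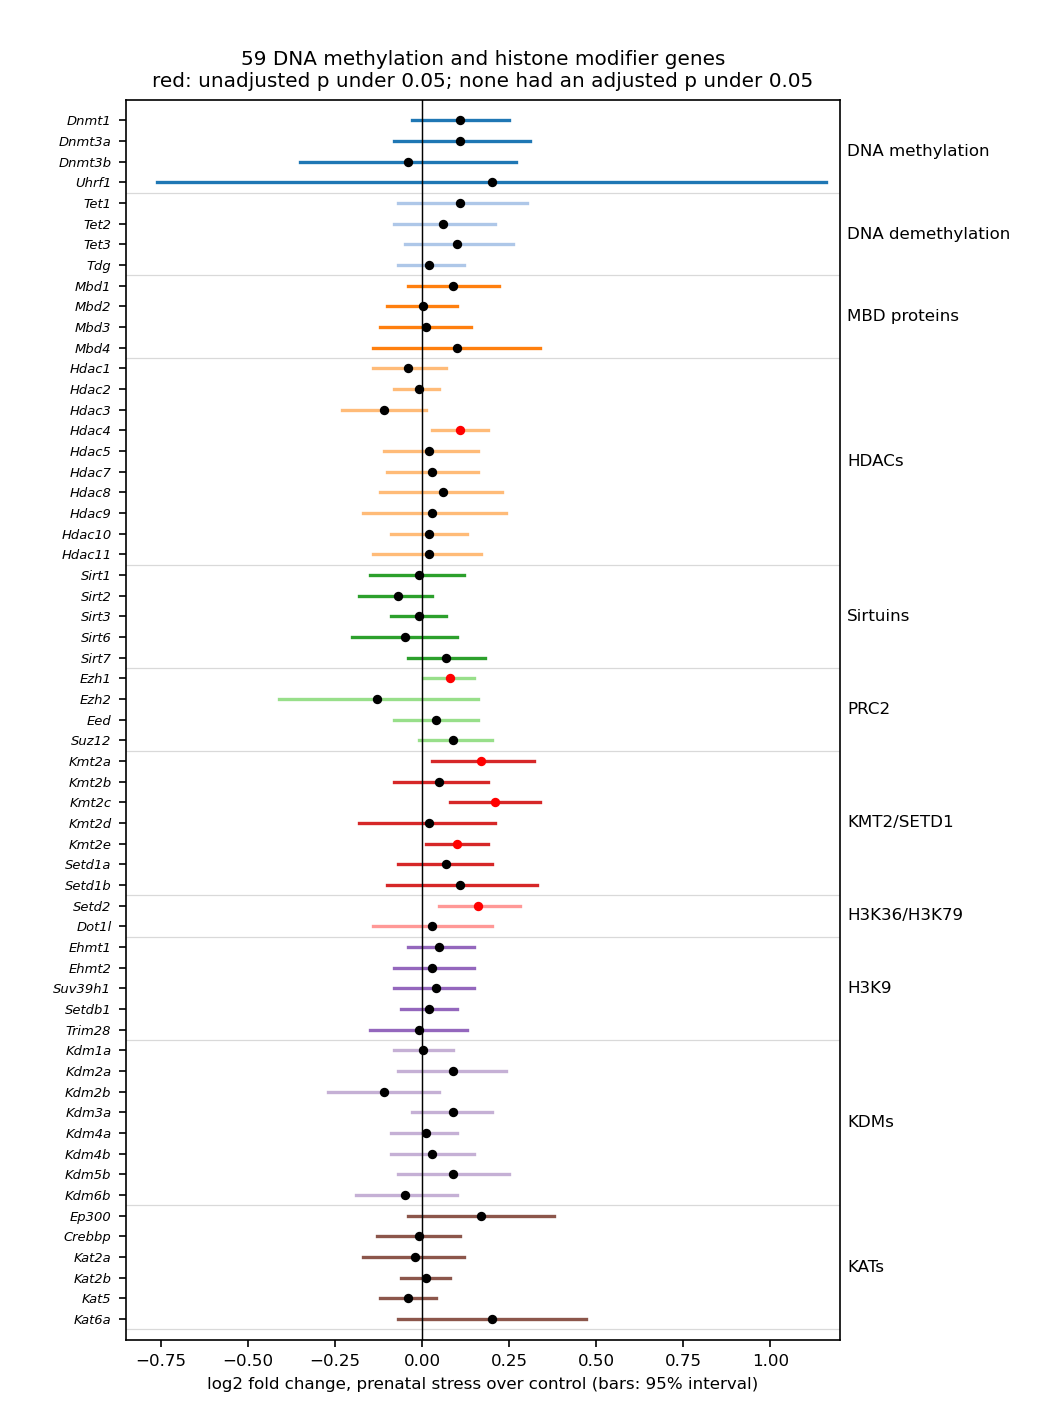
Log2 fold change of prenatal stress over control for each of the 59 genes (points) with its 95% interval (bars), by role group, from edgeR on 3 against 3 pools. All points lie between -0.13 and 0.21, most intervals cross 0, and Uhrf1 has the widest.

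The enzymes that place DNA methylation were present at very different levels. Per kb of transcript, which allows genes to be compared, Dnmt1, the maintenance enzyme that copies methylation after replication, stood at 7.51 ± 0.516 CPM per kb (SD over 6 pools). Dnmt3a, a de novo enzyme and the main one of mature neurons, stood at 5.28 ± 0.47 CPM per kb and below Dnmt1 in every pool. That order rests on the transcript lengths used, 9685 bases for Dnmt3a and 5870 for Dnmt1. In CPM, Dnmt3a was above Dnmt1 in every pool. Dnmt3b, the other de novo enzyme, was at 0.292 ± 0.0121 CPM per kb, 14.7 to 19.5 times lower than Dnmt3a. None of them was called between groups.
Dnmt1 had 40.5, 42.7 and 43.9 CPM in control pools 1 to 3 and 41.8, 47.8 and 47.6 CPM in stress pools 1 to 3 (log2 fold change 0.11 ± 0.06 SE, edgeR adjusted p = 0.541). The groups overlapped through stress pool 1. Each stress pool stood above the control pool of its own number, but the labels do not show that same-numbered pools were paired. Dnmt3a had 43.8, 50 and 53.4 CPM in controls and 49.2, 53 and 57.1 CPM after stress (0.11 ± 0.08), with control pool 1 the lowest and each stress pool again above its same-numbered control. With the replicate number as a block, the edgeR unadjusted p was 0.0326 for Dnmt1 (adjusted p = 0.376) and 0.0176 for Dnmt3a (adjusted p = 0.326). Without control pool 1 the log2 fold change of Dnmt3a was 0.04. Dnmt3b stayed between 1.2 and 1.33 CPM in all 6 pools (-0.04 ± 0.13).

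Uhrf1, which brings Dnmt1 to newly replicated DNA, varied more between pools than any other member. It had 2.15, 2.19 and 2.59 CPM in controls and 1.1, 2.82 and 4.11 CPM after stress, so the stress pools held both the lowest and the highest value, 3.74 times apart. Its log2 fold change of 0.20 ± 0.41 became -0.25 without stress pool 3 and 0.58 without stress pool 1 (edgeR; adjusted p 0.567 to 0.965 over 12 alternatives, with an unadjusted p under 0.05 in 1, without stress pool 1).
Markers of dividing cells and of marrow moved with it. The 14 dividing-cell genes summed to 80.3, 82.3 and 100 CPM in controls and 67.6, 90.4 and 135 CPM after stress, the 8 neutrophil and marrow genes to 139, 181 and 301 CPM and to 44.5, 218 and 410 CPM, and the 7 erythroid genes to 197, 245 and 414 CPM and to 97.6, 398 and 677 CPM. Stress pool 1 was lowest and stress pool 3 highest for Uhrf1 and for the 3 lists. No gene of these lists was called, and 0 had an unadjusted p under 0.05. Ezh2, another gene that is high in dividing cells, was also lowest in stress pool 1 (5.97 CPM), and highest in control pool 3 (8.31 CPM). The part of such cells in the Uhrf1 values was not tested, and reads of Uhrf1 may be shared with a processed pseudogene.

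**Figure D2:**
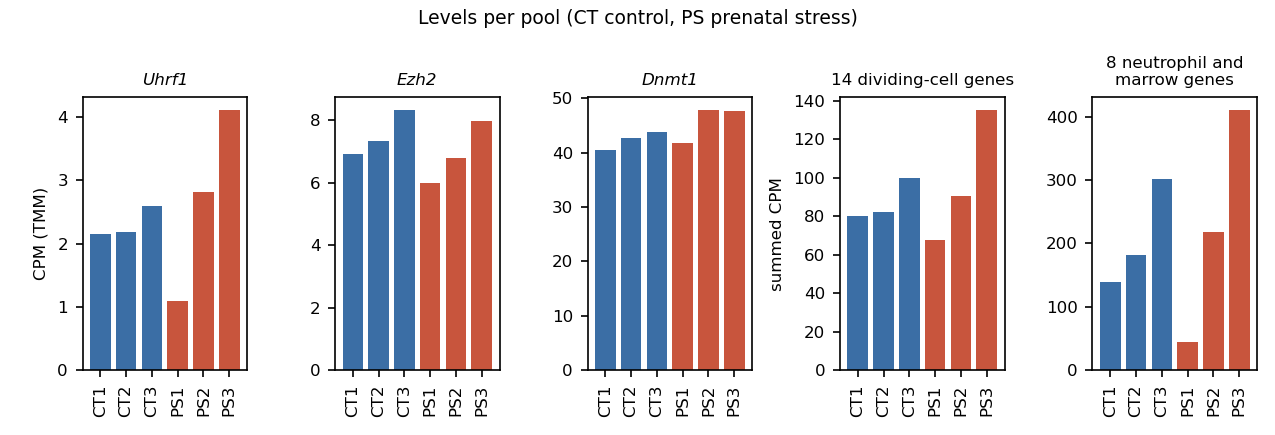
Bars give CPM of Uhrf1, Ezh2 and Dnmt1 and the summed CPM of 14 dividing-cell genes and of 8 neutrophil and marrow genes in each of the 6 pools (CT control, PS prenatal stress; 1 bar per pool, no error bars). Uhrf1 and both lists are lowest in stress pool 1 and highest in stress pool 3, while Dnmt1 stays between 40.5 and 47.8 CPM.

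Enzymes that take methylation away showed the same order in every pool. Tdg, the glycosylase that excises oxidised methylcytosine, stood at 7.08 ± 0.146 CPM per kb, with the caution that 4 pseudogene copies could share its reads. The oxidising enzymes followed as Tet3 (3.54 ± 0.258), Tet2 (2.11 ± 0.117) and Tet1 (0.603 ± 0.0419 CPM per kb), and their ranges over the 6 pools did not overlap. Tet3 was 5.18 to 6.88 times Tet1.
All 4 log2 fold changes of this group were positive and small, 0.02 to 0.11, and none was called. Tet3 had 33.8, 38.5 and 39.3 CPM in controls and 38.4, 39.1 and 42.5 CPM after stress (0.10 ± 0.07, adjusted p = 0.603), and the groups overlapped. Tdg lay between 24.2 and 25.6 CPM in all pools (0.02 ± 0.04).

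The methyl-CpG-binding domain proteins, of which Mbd1 and Mbd2 recruit repressors to methylated DNA and Mbd4 repairs mismatches there, had log2 fold changes of 0.0013 to 0.10. Mbd2 (23 ± 0.743 CPM per kb) and Mbd3 (22.7 ± 1.06), which take part in alternative forms of the NuRD repressor complex, were the highest and overlapped in range. Mbd1 (12.3 ± 0.721) and Mbd4 (2.51 ± 0.245 CPM per kb) followed. Mbd2 had 45.5, 42.7 and 46.8 CPM in controls and 46.2, 44.4 and 44.5 CPM after stress, a log2 fold change of 0.0013 with a 95% interval of -0.10 to 0.10. Mbd1 had the smallest p of the group (0.09 ± 0.05, adjusted p = 0.569), at 46.6 ± 2.62 and 49.7 ± 2.47 CPM (SD, n = 3 pools each).

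**Figure D3:**
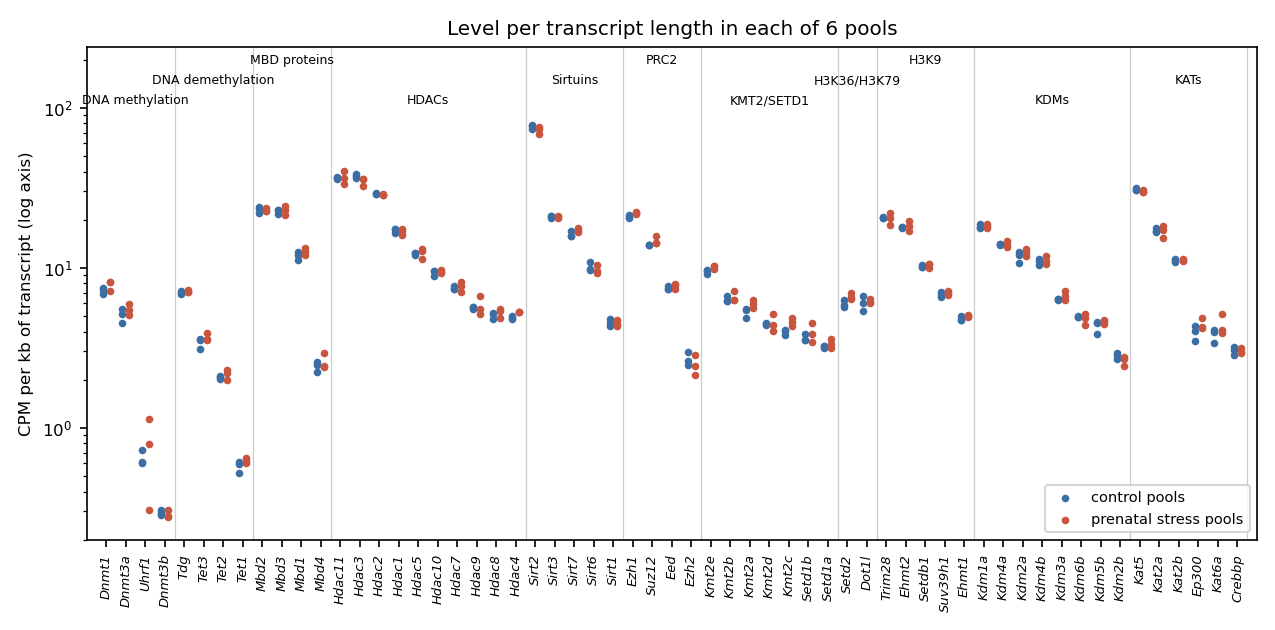
CPM per kb of transcript (log axis) of the 59 genes in each control pool (blue) and each prenatal stress pool (red), sorted within role groups. Sirt2 is the highest member and Dnmt3b the lowest by mean, and the colours overlap for most genes.

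The 10 zinc-dependent histone deacetylases summed to 510 ± 5.67 CPM in controls and 510 ± 15.3 CPM after stress. Within the family Hdac11, the single class IV enzyme, led with 36.6 ± 2.24 CPM per kb. It overlapped with Hdac3, the catalytic subunit of the NCoR and SMRT corepressor complexes (36.1 ± 2.12). The class I enzymes Hdac2 (28.9 ± 0.298) and Hdac1 (17 ± 0.653) came next, although 3 pseudogenes match Hdac1. Hdac2 was the steadiest of all 59 genes, with a coefficient of variation of 1.03% over the 6 pools.
Hdac4 separated the groups upward and Hdac3 downward, 1 each of the 10 deacetylases. Of all tested genes, 9.33% separated upward and 8.76% downward, shares near those of the family. Hdac4, a class IIa enzyme that moves between cytoplasm and nucleus with neuronal activity, had 38.6, 39.6 and 40.6 CPM in controls and 42.7, 42.8 and 42.8 CPM after stress. Hdac3 had 76.3, 73.6 and 78.6 CPM in controls and 72.9, 73.4 and 65.8 CPM after stress, and its lowest control lay just above its highest stress pool. Neither was called: the log2 fold change was 0.11 ± 0.03 for Hdac4 (edgeR adjusted p = 0.354) and -0.11 ± 0.05 for Hdac3 (adjusted p = 0.486). Hdac4 had an unadjusted p under 0.05 in 11 of 12 alternatives and Hdac3 in 3 of 12. Without stress pool 3 the Hdac3 value was -0.06. For Hdac4 the SD was 0.0802 CPM in stress pools and 1.02 CPM in controls. Hdac11 (0.02 ± 0.06) ran from 89.2 to 107 CPM within the stress group.

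Among sirtuins, the NAD-dependent deacylases, Sirt2 stood far above the others. Sirt2, a mostly cytoplasmic tubulin and histone deacetylase that is abundant in myelinating glia, had 74.4 ± 3.47 CPM per kb, the highest level of all 59 genes and 15.2 to 17.5 times Sirt1 (4.52 ± 0.191). Sirt3, the mitochondrial member, had 20.9 ± 0.334, and the nuclear members Sirt7 and Sirt6 had 16.7 ± 0.727 and 9.95 ± 0.533 CPM per kb. Each of the 5 exceeded the next in all pools.
Sirt2 had 162, 166 and 157 CPM in controls and 156, 160 and 144 CPM after stress (-0.07 ± 0.05, edgeR adjusted p = 0.583), with stress pool 3 the lowest. Markers of myelinating Schwann cells were also lowest in that pool, at 6136 CPM in sum against 7045 to 8182 CPM in the other 5 pools, with 0 of 8 positive and 0 called; their part in the Sirt2 value was not tested. Of the 5 sirtuins 1 had a positive value and none was called.

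Polycomb repressive complex 2, which methylates histone H3 at lysine 27, has a choice of 2 catalytic subunits, and the adult ganglion held far more of one. Ezh1, the subunit of non-dividing cells, stood at 21.4 ± 0.699 CPM per kb and Ezh2 at 2.59 ± 0.304 CPM per kb, a ratio of 6.95 to 8.28 in control pools and 7.8 to 10.1 in stress pools. The core subunits Suz12 (14.3 ± 0.753) and Eed (7.61 ± 0.242) lay between them, and no ranges overlapped.
Ezh1 and Suz12 were higher in each stress pool than in any control pool, by little, as were 9.33% of all tested genes. Ezh1 had 86.5, 89.7 and 87.1 CPM in controls and 91, 92.8 and 93.7 CPM after stress (0.08 ± 0.03, edgeR adjusted p = 0.443), and its unadjusted p was under 0.05 in 0 of 12 alternatives. Suz12 had 60.3, 60.2 and 60.5 CPM and then 62, 62.4 and 68.8 CPM (0.09 ± 0.05, adjusted p = 0.495), with stress pool 3 the highest and a log2 fold change of 0.04 without it. Ezh2 had 6.92, 7.33 and 8.31 CPM and 5.97, 6.8 and 7.96 CPM, with overlapping groups (-0.13 ± 0.12). The ratio of Ezh1 to Ezh2 overlapped between groups too.

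The KMT2 and SETD1 family holds the large enzymes and relatives that act on lysine 4 of histone H3. It had 3 of the 6 members with an unadjusted p under 0.05, and all 7 values of the main test were positive. Of all tested genes, 6.01% were higher at that threshold and 52.3% had a positive value. With the GC and length correction Kmt2b was -0.0012 and Kmt2e 0.05 (edgeR unadjusted p = 0.138). Their summed level was 398, 413 and 421 CPM in control pools and 428, 462 and 437 CPM in stress pools, which did not overlap (410 ± 11.8 and 442 ± 17.4 CPM, SD). This was not particular to the family. The sums of Polycomb repressive complex 2 subunits and, by little, of DNA demethylation enzymes were also higher in each stress pool than in any control pool. All 7 family members are among the 30 members of 4577 bases or more described below, of which 27 had positive values. None of the 7 was called.
Kmt2c, which methylates lysine 4 at enhancers, had 56.5, 60.2 and 61.5 CPM in controls and 68.9, 64.5 and 73 CPM after stress. Every stress pool lay above every control pool. Its log2 fold change was 0.21 ± 0.05 (95% interval 0.08 to 0.34, edgeR adjusted p = 0.29), the smallest p of the 59 genes. The unadjusted p was under 0.05 in all 12 alternatives and the adjusted p ranged from 0.0493 to 0.634 over them.
Kmt2a, the MLL1 enzyme of Hox gene control, had 80, 89.2 and 90.6 CPM in controls and 91.9, 97.2 and 104 CPM after stress (0.17 ± 0.06, adjusted p = 0.394). Control pool 1 stood apart below the other 5. Kmt2e, a relative that binds the mark more than it writes it, had 66.5, 70.7 and 69.4 CPM and then 71.5, 74.3 and 75.6 CPM (0.10 ± 0.04, adjusted p = 0.421). The unadjusted p was under 0.05 in 9 of 12 alternatives for Kmt2a and in 6 of 12 for Kmt2e. Kmt2e was also the highest of the family per length, at 9.75 ± 0.449 CPM per kb.
The groups overlapped for the other members of the family. Kmt2d, the partner enzyme of Kmt2c at enhancers, had 89.8, 87.5 and 88.1 CPM in controls and 86.6, 102 and 79.8 CPM after stress, with stress pools on both sides of the controls (0.02 ± 0.08). Kmt2b, the relative of Kmt2a, had 53.8 ± 2.03 and 55.8 ± 4.15 CPM (0.05 ± 0.06). Setd1b ran from 30.7 to 39.8 CPM within the stress group (0.11 ± 0.09, and 0.003 without stress pool 2). The difference between Kmt2c and Kmt2d was not tested.

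Setd2, the sole enzyme known for trimethylation of lysine 36 of histone H3 in transcribed genes, was another member whose groups separated. It had 47.4, 48.7 and 52.4 CPM in controls and 54.8, 53.7 and 58 CPM after stress (0.16 ± 0.05, 95% interval 0.05 to 0.28, edgeR adjusted p = 0.354). Control pool 3 was the highest control and stress pool 2 the lowest stress pool. Its unadjusted p was under 0.05 in 11 of 12 alternatives. Dot1l, which methylates lysine 79, stood at 41 ± 4.15 and 42 ± 1.47 CPM, and per length the 2 enzymes overlapped at 6.29 ± 0.473 and 6.1 ± 0.416 CPM per kb.

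**Figure D4:**
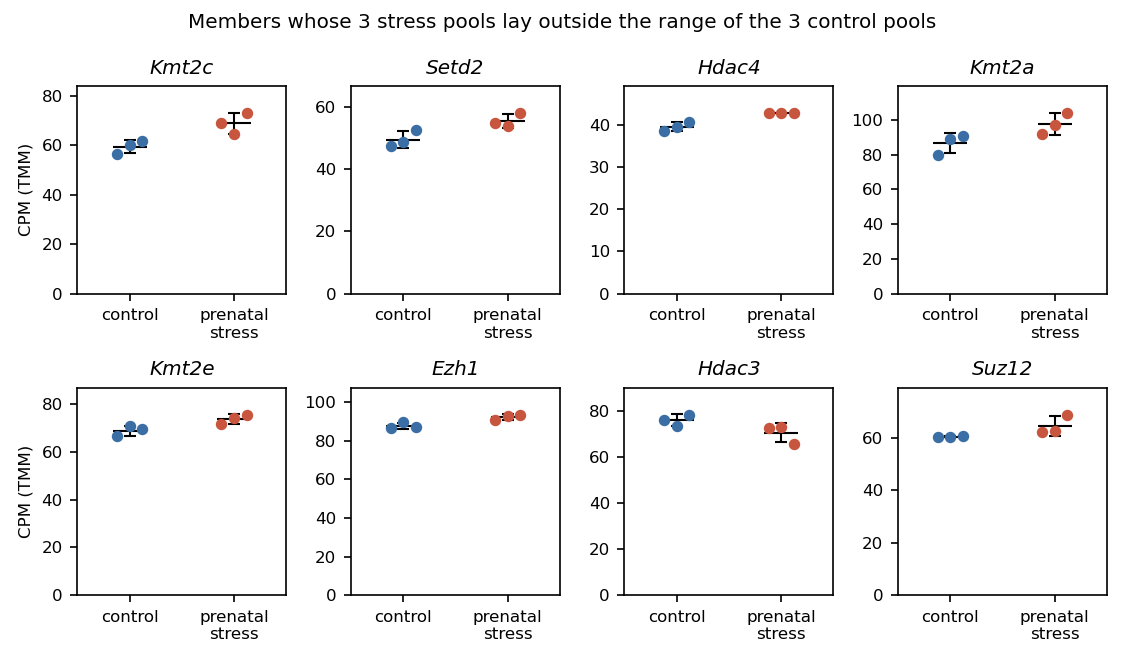
CPM in each pool (points) with mean and SD (black) for the 8 members whose stress pools lay wholly outside the control range. Of these, 7 are higher after stress (11.9% of members, 9.33% of all tested genes) and Hdac3 is lower (1.69% and 8.76%). The differences are small next to the levels, since each axis starts at 0.

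The enzymes of lysine 9 of histone H3, a mark of silent chromatin, and their scaffold overlapped between groups throughout. Summed levels were 237, 235 and 236 CPM in controls and 238, 250 and 230 CPM after stress, and the log2 fold changes ran from -0.01 to 0.05. Trim28, the scaffold that zinc finger repressors use to recruit Setdb1, led with 20.5 ± 1.1 CPM per kb and was at 66.7 ± 0.94 and 66.1 ± 5.53 CPM (-0.01 ± 0.06). Ehmt2 (G9a) stood at 18 ± 0.798 CPM per kb, 3.38 to 3.95 times its dimer partner Ehmt1 (4.91 ± 0.146). Ehmt1 had 28.7 ± 0.987 and 29.7 ± 0.366 CPM (0.05 ± 0.04, edgeR adjusted p = 0.691), the smallest p of the group.

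Of the 8 histone lysine demethylases, 6 had positive values and none was called or separated the groups. Kdm1a (LSD1), the flavin-dependent enzyme, was the highest at 18.3 ± 0.444 CPM per kb and was level between groups, at 55.2 ± 1.39 and 55.3 ± 1.6 CPM (0.0041, 95% interval -0.08 to 0.09). Kdm4a (14 ± 0.411), Kdm2a (12.1 ± 0.824) and Kdm4b (11 ± 0.495 CPM per kb), all of the Jumonji type, followed, and Kdm2b was the lowest at 2.73 ± 0.176. Kdm3a had the smallest p, with 30.8, 30.4 and 31 CPM in controls and 32.6, 30.7 and 34.6 CPM after stress (0.09 ± 0.05, edgeR adjusted p = 0.558). Kdm2b (-0.11 ± 0.07) and Kdm6b (-0.05 ± 0.06), a demethylase of lysine 27 induced by many signals, were the 2 with negative values.

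The 6 acetyltransferases had 3 positive values. Kat5 (TIP60) was the highest at 30.5 ± 0.729 CPM per kb, followed by the GCN5 and PCAF enzymes Kat2a (17.1 ± 0.976) and Kat2b (11.2 ± 0.134), and then by Ep300 (4.19 ± 0.454), Kat6a (4.1 ± 0.575) and Crebbp (3.03 ± 0.125). Ep300 had 33.2, 38.8 and 41.2 CPM in controls and 40.9, 40.1 and 46.7 CPM after stress, with control pool 3 inside the stress range (0.17 ± 0.09, edgeR adjusted p = 0.521). Its close relative Crebbp had 32.9 ± 1.79 and 32.6 ± 1.13 CPM. Kat6a was spread by a low control pool 1 (30.7 CPM) and a high stress pool 3 (46.8 CPM), with the other 4 pools between 35.9 and 37 CPM (0.20 ± 0.11, and 0.06 without stress pool 3). With the replicate block the edgeR unadjusted p was 0.0164 for Ep300 (adjusted p = 0.322) and 0.0207 for Kat6a (adjusted p = 0.341). Kat5 stood at 66.7 ± 1.45 and 64.9 ± 1.32 CPM (-0.04 ± 0.03), and none of the 6 was called.

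The log2 fold changes of the members ran with the length of their transcripts. The correlation with log2 length was r = 0.55 over the 59 members, 0.42 over 117 other chromatin genes and 0.05 over the 19186 tested genes with a known length. It is given as a description across genes, which share the same 6 libraries and are not independent. Among the 30 members of 4577 bases or more, 27 had positive values (median 0.08) and 5 of the 6 with an unadjusted p under 0.05 were found there. Among the 29 shorter members 17 were positive (median 0.01).
Control pool 1 was the lowest of the 6 pools for the longer members, with a median deviation of -0.07 on the log2 scale, while it stood at 0.02 for the shorter ones. Without that pool r was 0.43 for members and 0.20 for the other chromatin genes, and 3 of the 6 members kept an unadjusted p under 0.05. The trend was also present between control pools. For log2 ratios of members, r with log2 length was 0.50 for control pool 2 over control pool 1 and 0.33 for control pool 3 over control pool 1. Stress pools gave 0.39 to 0.49 over control pool 1, 0.13 to 0.23 over control pool 2 and 0.15 to 0.31 over control pool 3. A correction of each library for GC content and length gave r = 0.30 for members and kept 3 of the 6, Kmt2c (0.18), Kmt2a (0.16) and Setd2 (0.12), with adjusted p from 0.43 to 0.465. The part of RNA or library quality in this pattern was not tested.

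Within the stress group, GC content ran with the gap between pools 2 and 3. The log2 ratio of stress pool 3 over stress pool 2 had r = -0.63 with transcript GC over the 59 members and -0.19 over 19174 genes, again a description. These were picked as the 2 stress pools farthest apart by GC, and among members r was the farthest from 0 of 15 pairs of pools. For members, r was 0.29 for stress pool 2 over stress pool 1 and -0.20 for stress pool 3 over stress pool 1. Across groups it was 0.51 for stress pool 2 over control pool 2 and -0.49 for stress pool 3 over control pool 3. Of the 30 members with at least 51.7% GC 7 were higher in stress pool 3, and of the 29 others 21 were. Setd1b (-0.38), Kmt2d (-0.35) and Hdac11 (-0.27) were at the negative end, and Uhrf1 (0.54), Hdac9 (0.37) and Kat6a (0.34) at the positive end. Stress pool 2 was the higher of the pair for most GC-rich members.

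**Figure D5:**
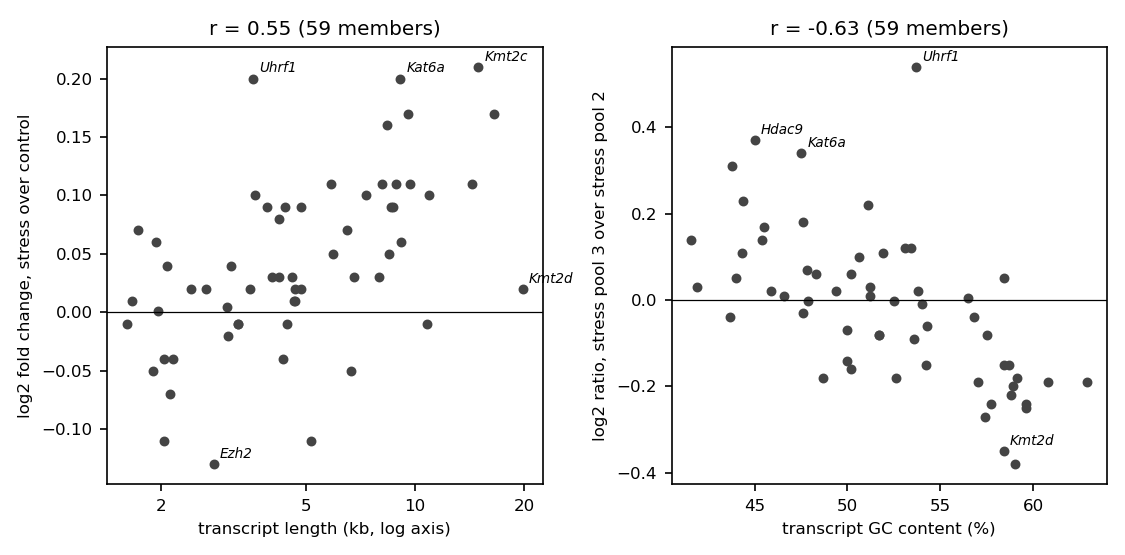
Left, log2 fold change of stress over control against transcript length (kb, log axis) for the 59 genes (points). Right, log2 ratio of stress pool 3 over stress pool 2 against transcript GC content (%), with r = 0.55 on the left and -0.63 on the right.

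Of 118 listed chromatin genes outside the members, 117 were tested and 0 were called in edgeR; 8 were higher and 5 lower at an unadjusted p under 0.05, which is 11.1% of them and 11.1% of all tested genes. The pools of both groups were wholly separate for 20 with a higher level after stress (17.1%) and 7 with a lower one (5.98%), against 9.33% and 8.76% of all tested genes. Their median log2 fold change was 0.05, and 83 of the 117 had a positive value (70.9%). The list of 30 histone and arginine methyltransferases with their partners and readers had 20 positive values. At an unadjusted p under 0.05 it held 3 higher and 3 lower genes. The smallest p values there belonged to the 3 lower ones, Prmt7, Prmt1 and Prmt5, which methylate arginine. Prmt7 had 39.8 ± 0.515 CPM in controls and 35.6 ± 0.61 CPM after stress (-0.16 ± 0.03, edgeR adjusted p = 0.234), while Prmt1 and Prmt5 both had -0.11 ± 0.03. With the GC and length correction the unadjusted p of Prmt1 was 0.112 and that of Prmt5 0.121. Of 3 others of that family, named after their values were seen, Prmt6 stood at 0.10, Carm1 at 0.02 and Prmt2 at -0.05. The DESeq2 Wald test called Prmt7 (adjusted p = 0.0368; 0.0368 to 0.634 over 12 alternatives).
The other 2 at the lower end were Gadd45g (-0.24 ± 0.06), of a stress-induced family tied to demethylation and repair, and the histone-binding protein Rbbp7 (-0.10 ± 0.03). Gadd45b, of the same family, stood at 0.21 ± 0.08. Among Polycomb partners the smallest p values belonged to Asxl1 (0.10 ± 0.05), Mtf2 (0.08 ± 0.04) and Jarid2 (0.09 ± 0.05). Chd3 (0.07 ± 0.04) and Ncor1 (0.14 ± 0.07) were next to Rbbp7 among deacetylase partners, and Uhrf2, a relative of Uhrf1, stood at 0.13 ± 0.05. Positive values were also found for the demethylases Phf8 (0.13 ± 0.04), Kdm5a (0.12 ± 0.06) and Jmjd1c (0.12 ± 0.06). The same held for the readers and coactivators Bptf (0.18 ± 0.06) and Ncoa2 (0.17 ± 0.06) and the acetyltransferase Kat7 (0.07 ± 0.03). For these 6 genes the edgeR adjusted p ran from 0.366 to 0.499.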

How the data were processed

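Counts of reads per gene symbol were deposited by the authors for 6 libraries, 1 per pool, without normalization. Libraries were stranded and poly-A selected, per the labels' protocols, which give RNA integrity of 8.2 to 8.6. FastQC, STAR 2.4 and HTSeq 0.9.1 and the builds GRCm39 and mm10 are named in the submitters' processing notes. The build behind these counts and the option for strand were not found in the labels. Reads with no gene (15.3% to 16.2% of each file) were left out.

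edgeR 4.0.16 (R 4.3.3) was fitted to all genes after filterByExpr at a minimum count of 10 and TMM scaling, and tested by quasi-likelihood, with Benjamini-Hochberg adjustment over 20146 genes and a threshold of 0.05. The SE is the log2 fold change divided by the square root of F, and intervals use the t quantile at 95%. CPM use TMM factors. Length and GC are those of the longest protein-coding transcript in GENCODE M21, known for all 59 members and 95.2% of tested genes; a gene's true mixture of isoforms can differ. The correction for GC and length removed, per library, a spline of log2 CPM (prior count 2) with 5 degrees of freedom for each. DESeq2 1.42.0 gave the Wald test. The scripts were tested on simulated data. Figures used matplotlib 3.10.9.

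The members and lists were chosen with earlier results of these data known. Named were members with an unadjusted p under 0.05 and, per role group, the highest per kb and the smallest p, together with the 3 smallest p per list of other chromatin genes. Hdac3, Suz12, Uhrf1, Ezh2, Dnmt3a, Dnmt3b, Kat6a, Kmt2b, Kmt2d, Kdm6b, Kdm2b and Setd1b were added after their values were seen, and levels are given for further members. With minimap2 2.31-r1302 (at least 90% identity over 200 bases), 6 members matched processed pseudogenes (Hdac1, Kat2b, Kdm2b, Kmt2d, Tdg and Uhrf1), Setd1a and Setdb1 matched another transcript on the same strand, and 10 had opposite-strand overlaps, among them Kmt2a, Kmt2c and Kmt2e, so their reads may be shared. All pairs of libraries differed by more than sampling noise (chi-square per degree of freedom 10.65 to 36.37). Replicate numbers 1 to 3 are in both groups' labels. Deviations of same-numbered pools correlated across genes at 0.42, 0.19 and 0.17. Pools of unlike number were not set beside them, so these values cannot show that the pools were paired. The main test had no block, and the number served as a block only in alternatives. The alternatives were other size factors, DESeq2, no low-count filter, each pool left out, a replicate block, and the GC and length correction with and without the block.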

Additional observations from a re-analysis of the deposited data

How the results depend on the processing

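With 3 pools a group, the number of pools and not the depth limits what the intervals resolve. The number of genes called was 330 with DESeq2, 49 without the low-count filter, 22 with the replicate block, 22 with the GC and length correction and 30 with both, and 2 (without control pool 2) to 14 (without control pool 1) with a pool left out. Members called were 1 with DESeq2 (Kmt2c) and 0 in the 11 other alternatives; other chromatin genes called were 1 with DESeq2 (Prmt7) and 0 in the 11 others. The members with an unadjusted p under 0.05 and a higher level numbered 3 (without control pool 1) to 7 (without stress pool 1) with a pool left out, and 9 with the replicate block, which added Dnmt1, Dnmt3a, Ep300 and Kat6a, lost Ezh1 and made no adjusted call among members (Kmt2c adjusted p = 0.25). Those with a lower level numbered 1 with DESeq2 and without the filter (Hdac3 in both), 1 with the GC and length correction and with that correction and the replicate block (Kdm6b in both), and 0 to 1 with a pool left out (Hdac3 without stress pool 2). Of 588 values for 49 named genes, 24 from 10 genes changed sign, and over all 59 members 26 changed sign in at least 1 alternative; the cause was not tested. Mbd2 was -0.0037 with DESeq2 size factors, -0.004 with the Wald test and -0.0038 without the filter, and Kdm1a -0.00099, -0.00032 and -0.0013. With the GC and length correction, alone and with the replicate block, Kat5 was 0.0029 and 0.0035 and Kmt2b -0.0012 and -0.001. With a pool left out the ranges were -0.0021 to 0.03 for Tdg, -0.04 to 0.03 for Mbd2, -0.06 to 0.07 for Hdac11, -0.08 to 0.04 for Trim28, -0.02 to 0.02 for Kdm1a, -0.25 to 0.58 for Uhrf1, -0.02 to 0.08 for Kmt2b, -0.09 to 0.08 for Kmt2d and -0.11 to 0.01 for Kdm6b. Summed levels of role groups under 3 other scalings and filters moved by over 1 SD in 1 of 66 values (lysine 9 controls, 237 CPM with the correction).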
